A study of Mus musculus with 16 samples.

Results

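The axon guidance cues and their receptors were described in fat cells of female C57BL/6 mice. The genes were taken by name: every protein-coding row of the deposited count table named as a class 3 to class 7 semaphorin, a plexin, a neuropilin, a Slit, a Robo, a netrin or an Unc5 receptor. That gave 45 of the 54532 genes in the table, of which 26 encode cues (20 semaphorins, 3 Slits and 3 netrins) and 19 encode receptors (9 plexins, 2 neuropilins, 4 Robos and 4 Unc5 receptors). Guidance cues are secreted or membrane-bound proteins that attract or repel growing axons. Semaphorins act through plexins, and most class 3 semaphorins need a neuropilin as co-receptor; Slits act through Robo receptors, and netrins through Dcc, neogenin and the Unc5 receptors. The same proteins also act outside the nervous system, in vessel growth, in immune cells and on the sympathetic nerve fibres that reach adipose tissue.

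All RNA came from gonadal white adipose tissue, digested with collagenase and parted into a mature adipocyte fraction and a preadipocyte fraction with the help of magnetic sorting, per the labels' protocols. Stressed pups (maternal separation and early weaning, MS) were taken from the dam daily on postnatal days 2 to 16 and weaned on day 17, and control pups (C) stayed undisturbed until weaning on day 21. The 16 bulk libraries were 3 MS and 3 C mature adipocyte libraries on a high-fat diet, 4 MS and 4 C preadipocyte libraries on a high-fat diet, and 1 MS and 1 C preadipocyte library on a low-fat diet. Neither the age at harvest nor the sort antibodies are given in the labels. Nothing there ties each library to its own animal, and p-values therefore cover only the spread between libraries of a group, which may be technical.

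Library totals ran from 14182130 to 23368821 counts. All 15 mature adipocyte markers tested were higher and all 14 adipocyte progenitor markers lower in mature adipocytes than in preadipocytes, so the labelled fractions matched their markers. Both fractions also held RNA of other cells: on the high-fat diet the summed endothelial markers were 572 to 3001 CPM (counts scaled to library size) in mature adipocytes and 357 to 1091 CPM in preadipocytes, and the summed macrophage markers were 3089.7 to 10806 CPM in mature adipocytes and 2146 to 10502 CPM in preadipocytes. None of the 15 endothelial or 16 macrophage markers was at 0 in any high-fat library. C preadipocyte libraries 1 and 3 were nearly identical (biological coefficient of variation 0.0427, against 0.205 to 0.567 in other pairs within a group) and were summed into 1 library in the fits. C adipocyte libraries 1 and 3 held few rare transcripts. In bulk RNA, fewer cells of a type and less RNA per cell cannot be told apart.

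The promoter windows of 4 members are printed first, because these genes had the largest differences between the fractions in either direction: Sema3d and Sema3e, nearly absent from mature adipocytes, and Robo4 and Sema3g, higher there. Each is the 250 bases before the RefSeq start on GRCm38.p6, 5′ to 3′, in lower case with capitals for matches to any of 6 short motifs on either strand.
Sema3d, chr5:12382916-12383165, plus strand: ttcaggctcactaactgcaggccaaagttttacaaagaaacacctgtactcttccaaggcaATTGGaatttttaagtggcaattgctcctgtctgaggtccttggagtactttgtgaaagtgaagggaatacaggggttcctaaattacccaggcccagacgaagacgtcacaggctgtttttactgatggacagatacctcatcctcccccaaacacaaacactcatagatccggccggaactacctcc
Sema3e, chr5:14025026-14025275, plus strand: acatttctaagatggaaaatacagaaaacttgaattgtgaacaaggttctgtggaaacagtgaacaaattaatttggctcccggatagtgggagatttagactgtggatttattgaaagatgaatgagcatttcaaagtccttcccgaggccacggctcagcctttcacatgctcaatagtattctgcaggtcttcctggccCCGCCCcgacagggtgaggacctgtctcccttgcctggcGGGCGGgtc
Robo4, chr9:37401722-37401971, plus strand: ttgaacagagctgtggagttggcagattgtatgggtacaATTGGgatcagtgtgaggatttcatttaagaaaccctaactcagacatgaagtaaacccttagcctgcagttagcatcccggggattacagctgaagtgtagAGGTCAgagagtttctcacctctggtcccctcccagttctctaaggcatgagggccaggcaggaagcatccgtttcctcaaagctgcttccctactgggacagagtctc
Sema3g, chr14:31217623-31217872, plus strand: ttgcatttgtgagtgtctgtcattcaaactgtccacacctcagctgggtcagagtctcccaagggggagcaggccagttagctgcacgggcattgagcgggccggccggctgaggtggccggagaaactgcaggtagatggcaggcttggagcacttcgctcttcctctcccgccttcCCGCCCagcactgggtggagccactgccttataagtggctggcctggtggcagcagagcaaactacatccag

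The motifs searched were the TATA box TATAAA, the CCAAT box CCAAT, the GC box GGGCGG, the E-box CACGTG, the ETS motif GGAAGT and the nuclear receptor half-site AGGTCA. In the Sema3d window the capitals mark a CCAAT box on the minus strand, and in the Sema3e window 2 GC boxes. The Robo4 window held a CCAAT box on the minus strand and a nuclear receptor half-site, and the Sema3g window held a GC box on the minus strand. RefSeq windows of 300 bases (250 before and 50 after the start) were at hand for 37 of the 45 members, as 50 windows, with none for Sema3b, Sema3f, Sema6a, Slit1, Ntn1, Plxna1, Plxna4 and Unc5d. A GC box stood in 66.0% of the member windows, against 35.7% of all 32851 windows in the RefSeq table. The full set of windows was not limited to protein-coding genes, as the members were, so these shares compare unlike sets. A CCAAT box stood in 16.0% of member windows against 37.4% of all windows, and a TATA box in 2.00% against 13.6%. The median GC content was 63.8% in member windows and 52.7% in all windows. The 4 printed windows were less GC-rich than the median member: over 300 bases GC content was 49.7% for Sema3d, 50.7% for Sema3e, 50.3% for Robo4 and 58.7% for Sema3g.

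Some members also lie on the same stretch of a chromosome (deposited coordinates, GRCm38). Sema3d, Sema3a, Sema3e and Sema3c lie in that order on the plus strand of chromosome 5 between positions 12383385 and 17730268, a span of 5.35 Mb, and all 4 were lower in mature adipocytes. The gaps were 536 kb from Sema3d to Sema3a and 423 kb from Sema3a to Sema3e. Sema3c lies farther off, starting at 17574281, whereas Sema3e ends at 14256689. Sema3b and Sema3f are 72.3 kb apart on the minus strand of chromosome 9 and had opposite differences, with Sema3f higher and Sema3b lower in mature adipocytes. Robo4 and Robo3 end 0.553 kb apart on chromosome 9, on opposite strands.

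The first comparison set mature adipocytes against preadipocytes on the high-fat diet, with early life treatment as a covariate. Most cues were lower in mature adipocytes, among them Slit2 and Slit3, both netrins tested and 5 of the 7 class 3 semaphorins, and so were Robo1 and Robo2, the main Slit receptors. A smaller set was higher in mature adipocytes: the cues Sema3g, Sema3f and Sema7a and the receptors Robo4, Unc5a and Plxna2. Of the 42 members that passed the filter on low counts, 6 were higher, 21 lower and 15 not called (edgeR quasi-likelihood test, Benjamini-Hochberg adjusted p under 0.05). Among the lower members, Robo2, Sema3e, Sema4f and Unc5c did not pass this filter in mature adipocytes alone. They entered through the preadipocytes, where they were higher, so their direction was largely set by the filter. Among all 17948 genes tested 59.8% were called, 26.9% higher and 32.9% lower in mature adipocytes. The median log2 fold change was -0.99 over the members tested and -0.22 over all genes tested. Of 25 cues tested, 3 were higher and 15 lower, and of 17 receptors, 3 were higher and 6 lower. Ntn5 (27 counts in all 16 libraries together), Robo3 (73 counts) and Unc5d (22 counts) were too low to test.

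**Figure D1:**
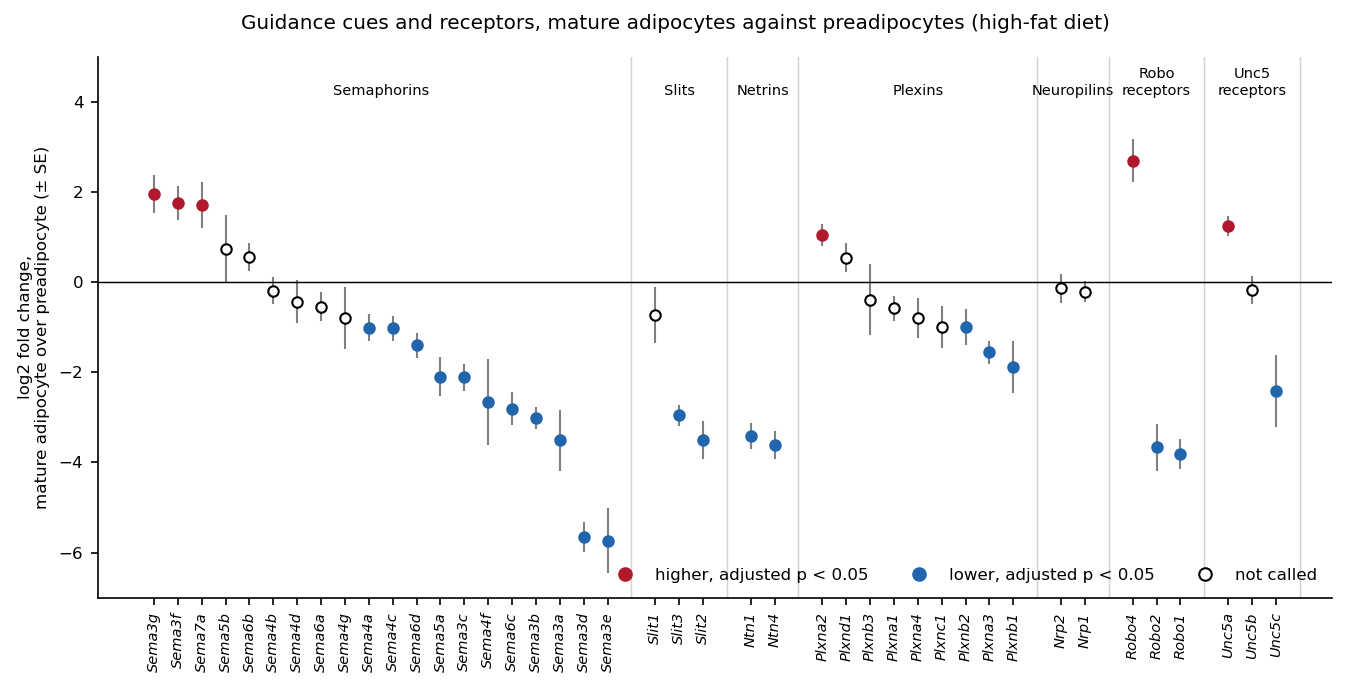
Log2 fold change (mature adipocyte over preadipocyte, high-fat diet) of the 42 members tested, by family, with bars for the standard error. Red points were higher and blue points lower at adjusted p under 0.05, and open points were not called; Sema3d and Sema3e lie lowest and Robo4 highest.

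Class 3 semaphorins are secreted cues. Sema3d, known for guiding axons and vessels in development, had 1.01, 0.574 and 1.11 CPM in MS adipocytes and 1.89, 1.44 and 2.75 CPM in C adipocytes, against 66.5, 95.8, 53.0 and 35.9 CPM in MS preadipocytes and 53.0, 97.0, 53.9 and 73.4 CPM in C preadipocytes. Every adipocyte library was far below every preadipocyte library. Sema3d was thus 50.4-fold lower in adipocytes, with a log2 fold change of -5.66 ± 0.34 SE (adjusted p 1.42e-08). Sema3e, the secreted ligand that binds plexin D1 directly, had 0.404, 0 and 0.453 CPM in MS adipocytes and 0, 0.721 and 0 CPM in C adipocytes, against 14.3, 27.6, 10.8 and 6.56 CPM in MS preadipocytes and 12.3, 20.3, 13.9 and 13.2 CPM in C preadipocytes. It was at 0 in several adipocyte libraries, where 3 counts would be 0.151 to 0.258 CPM, and above 6 CPM in all preadipocyte libraries. Its log2 fold change was -5.73 ± 0.72 (adjusted p 9.89e-06), a value that depends on the prior count because of these zeros.

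Sema3a, the prototype axon repellent, had 1.77, 0.446 and 1.76 CPM in MS adipocytes and 0, 0.943 and 0.0860 CPM in C adipocytes, against 9.61, 9.84, 5.82 and 5.47 CPM in MS preadipocytes and 8.04, 14.3, 8.97 and 9.55 CPM in C preadipocytes. The fractions did not overlap, and its log2 fold change was -3.50 ± 0.68 (adjusted p 0.000443). Sema3c, a secreted cue known for roles in heart outflow and vessel development, was the most abundant semaphorin in preadipocytes. It had 87.0, 106 and 171 CPM in MS adipocytes and 77.2, 96.3 and 59.6 CPM in C adipocytes, against 418, 673, 256 and 228 CPM in MS preadipocytes and 389, 568, 362 and 479 CPM in C preadipocytes. Even the highest adipocyte library lay below the lowest preadipocyte library (log2 fold change -2.11 ± 0.30, adjusted p 2.97e-05). Sema3b ranged over 4.12 to 7.27 CPM in mature adipocytes and 28.3 to 66.7 CPM in preadipocytes, without overlap (log2 fold change -3.01 ± 0.24, adjusted p 1.47e-07).

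Sema3g, a class 3 semaphorin known for expression in arterial endothelium, went the other way. It had 45.6, 43.5 and 118 CPM in MS adipocytes and 14.1, 78.4 and 59.8 CPM in C adipocytes, against 10.8, 6.92, 17.4 and 18.9 CPM in MS preadipocytes and 28.0, 8.89, 27.9 and 17.6 CPM in C preadipocytes. Every adipocyte library but C library 1 lay above all preadipocyte libraries (log2 fold change 1.95 ± 0.42, adjusted p 0.000997). Sema3f, a neuropilin 2 ligand that repels axons and restrains vessel growth, had 37.8, 25.6 and 70.9 CPM in MS adipocytes and 41.0, 42.1 and 71.7 CPM in C adipocytes, against 15.9, 11.7, 5.72 and 7.34 CPM in MS preadipocytes and 39.1, 14.9, 38.7 and 8.14 CPM in C preadipocytes. The fractions did not overlap within the MS libraries or within the C libraries. Across treatments they did, as the near-identical pair of C preadipocyte libraries lay above MS adipocyte libraries 1 and 2 (log2 fold change 1.76 ± 0.38, adjusted p 0.00103).

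**Figure D2:**
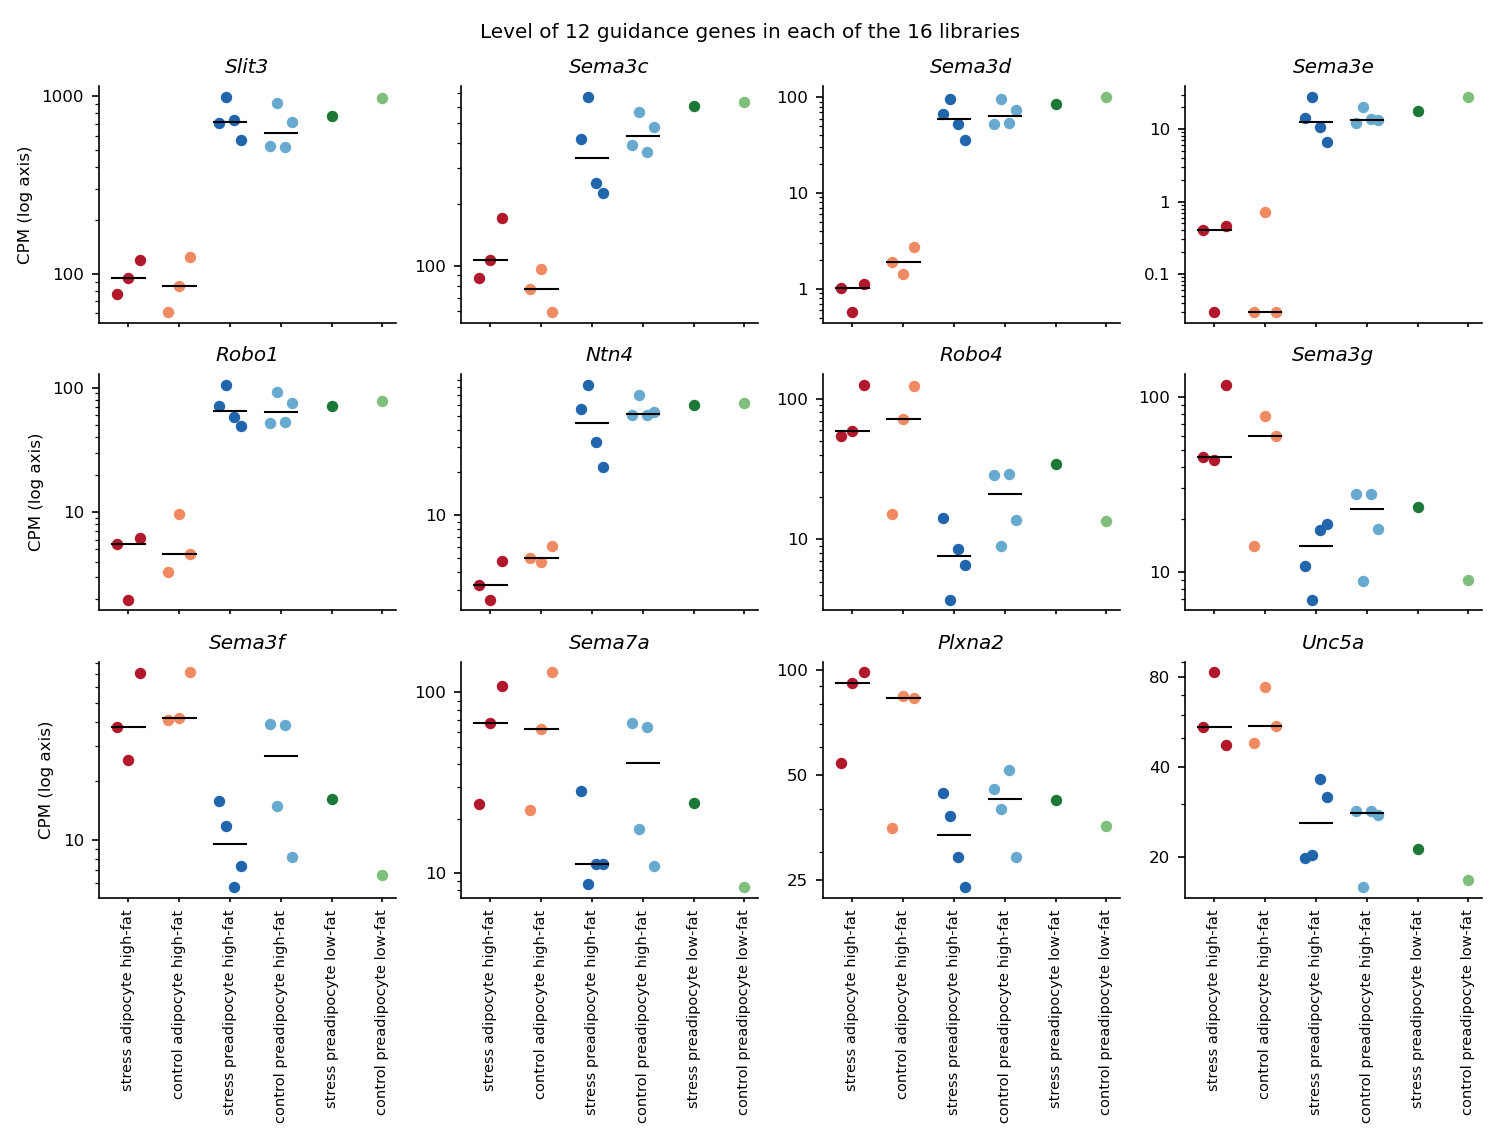
CPM (log axis) of 12 members in each of the 16 libraries, by group, with a line at the median of each group of 3 or 4 libraries; values of 0 are drawn at 0.03 CPM. Slit3, Sema3c, Sema3d, Sema3e, Robo1 and Ntn4 were low in every adipocyte library, and Robo4, Sema3g, Sema3f, Sema7a and Plxna2 were mostly high there but overlapped with preadipocytes through 1 or more libraries.

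The remaining semaphorins are mostly membrane-bound. Sema7a, which is anchored to the membrane by a lipid and binds plexin C1 and beta1 integrins, had 24.1, 67.7 and 108 CPM in MS adipocytes and 22.2, 62.4 and 129 CPM in C adipocytes, against 28.5, 8.71, 11.2 and 11.2 CPM in MS preadipocytes and 67.1, 17.5, 64.0 and 10.9 CPM in C preadipocytes. The fractions overlapped, and the log2 fold change was 1.71 ± 0.51 (adjusted p 0.00968). This call was lost with C libraries alone (adjusted p 0.260), with no filter on low counts (adjusted p 0.0510), and with treatment and replicate number as a block and the near-identical pair kept as 2 libraries (1.27, adjusted p 0.101). Sema6c had 1.06, 3.06 and 0.655 CPM in MS adipocytes and 2.51, 2.55 and 1.72 CPM in C adipocytes, against 13.7, 15.5, 11.7 and 7.55 CPM in MS preadipocytes and 8.20, 17.1, 7.83 and 18.8 CPM in C preadipocytes. It was lower in every adipocyte library (log2 fold change -2.81 ± 0.37, adjusted p 1.42e-05). Sema6d (-1.39 ± 0.28, adjusted p 0.000568) and Sema5a (-2.10 ± 0.44, adjusted p 0.000870) were also lower on the log2 scale, as were Sema4a (-1.01), Sema4c (-1.02) and the barely detected Sema4f (-2.66, at most 2.75 CPM in any high-fat preadipocyte library). Sema4a was called neither with MS libraries alone (adjusted p 0.0982) nor with C libraries alone (adjusted p 0.0567). Sema4c was not called with MS libraries alone (adjusted p 0.0944) but was with C libraries alone (adjusted p 0.0304). The call for Sema4f was lost in 6 of 24 alternatives. These included C libraries alone (adjusted p 0.188) and MS libraries alone (adjusted p 0.0689). They also included the fits without MS adipocyte library 1 (adjusted p 0.0525) or library 2 (adjusted p 0.0506). Sema4b, Sema4d, Sema4g, Sema5b, Sema6a and Sema6b were not called, with log2 fold changes between -0.80 for Sema4g and 0.73 for Sema5b. Without MS adipocyte library 3 Sema6a was called (-0.87, adjusted p 0.0184), and without C adipocyte library 1 Sema6b was called (0.73, adjusted p 0.0228).

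Slits are large secreted proteins. Slit3 was the most abundant member in preadipocytes: it had 77.2, 94.4 and 120.1 CPM in MS adipocytes and 61.2, 85.6 and 125 CPM in C adipocytes, against 704, 991, 732 and 564 CPM in MS preadipocytes and 521, 910.4, 516 and 715 CPM in C preadipocytes. The fractions were wide apart, and Slit3 was 7.76-fold lower in adipocytes, with a log2 fold change of -2.96 ± 0.23 (adjusted p 1.19e-07). Slit2 ranged over 1.28 to 14.6 CPM in mature adipocytes and 51.9 to 132 CPM in preadipocytes (log2 fold change -3.51 ± 0.42, adjusted p 6.95e-06). Slit1, best known from the nervous system, stayed below 5 CPM in every library. It was not called over all libraries (-0.73 ± 0.62, adjusted p 0.322), but without C adipocyte library 3, its highest adipocyte library, it was (-1.20, adjusted p 0.0472). It was also called with MS libraries alone (-2.03 ± 0.46, adjusted p 0.00655), whereas C libraries alone gave 0.63 ± 0.81 (adjusted p 0.573).

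Robo1 and Robo2 receive Slits. Robo1 had 5.51, 1.98 and 6.19 CPM in MS adipocytes and 3.29, 9.60 and 4.56 CPM in C adipocytes, against 71.4, 106, 58.7 and 49.4 CPM in MS preadipocytes and 52.4, 92.2, 53.4 and 75.4 CPM in C preadipocytes. Robo2 was far scarcer, with 0.404, 0.191 and 0.151 CPM in MS adipocytes and 0.279, 0.610 and 1.46 CPM in C adipocytes, against 4.27, 7.77, 2.66 and 2.13 CPM in MS preadipocytes and 3.94, 12.1, 5.75 and 6.06 CPM in C preadipocytes. For both genes every adipocyte library was below every preadipocyte library. The log2 fold change of Robo1 was -3.81 ± 0.34, which is 14.1-fold lower (adjusted p 3.63e-07), and that of Robo2 -3.67 ± 0.52, or 12.7-fold lower (adjusted p 3.11e-05). Slit2, Slit3, Robo1 and Robo2 were therefore all higher in the preadipocyte fraction.

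Robo4, the Robo family member of endothelial cells, had 54.7, 59.0 and 127 CPM in MS adipocytes and 15.2, 71.8 and 123 CPM in C adipocytes, against 14.2, 3.72, 8.58 and 6.51 CPM in MS preadipocytes and 28.6, 8.89, 29.3 and 13.7 CPM in C preadipocytes. C adipocyte library 1 lay within the preadipocyte range and the other 5 adipocyte libraries above it. The log2 fold change of 2.70 ± 0.48 (adjusted p 0.000230) was the highest of any member tested. Endothelial markers moved with it: the list was higher in mature adipocytes for 12 of its 15 genes and lower for 1, with a median log2 fold change of 2.33. The summed endothelial markers were 1303, 1487 and 2940.1 CPM in MS adipocytes and 572, 1773 and 3001 CPM in C adipocytes, against 617, 454, 367 and 357 CPM in MS preadipocytes and 1091, 539, 1046 and 624 CPM in C preadipocytes. The lowest adipocyte library for Robo4 was thus also the lowest for the endothelial sum. Set against that sum, Robo4 was 26.6 to 43.0 CPM per 1000 CPM of endothelial markers in mature adipocytes (median 40.7) and 8.20 to 28.0 in preadipocytes (median 22.5). Only C adipocyte library 1 lay within the preadipocyte range of this quantity, and the other 5 adipocyte libraries lay above it. The quantity depends on which markers are summed. Tek ran against its list, at 60.3 to 217 CPM in high-fat preadipocytes and 8.36 to 95.8 CPM in mature adipocytes. In MS preadipocyte library 2, Tek (217 CPM) and Eng (121 CPM) made up most of the sum, while Cdh5 was at 14.3 CPM. For Sema3g the same quantity was 19.9 to 44.2 in mature adipocytes (median 32.1) and 15.2 to 52.9 in preadipocytes (median 26.2). For Sema3f it was 17.2 to 71.7 in mature adipocytes (median 24.0) and 13.0 to 37.0 in preadipocytes (median 25.8), and for Sema7a 18.5 to 45.5 in mature adipocytes (median 37.9) and 17.5 to 61.6 in preadipocytes (median 32.02). For these 3 genes the fractions overlapped more widely than for Robo4. The mural cell list, which holds markers of vessel-wall cells, also had 7 of 12 genes higher and none lower. The part of these cells in the differences of Robo4, Sema3g, Sema3f and Sema7a was not tested.

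**Figure D3:**
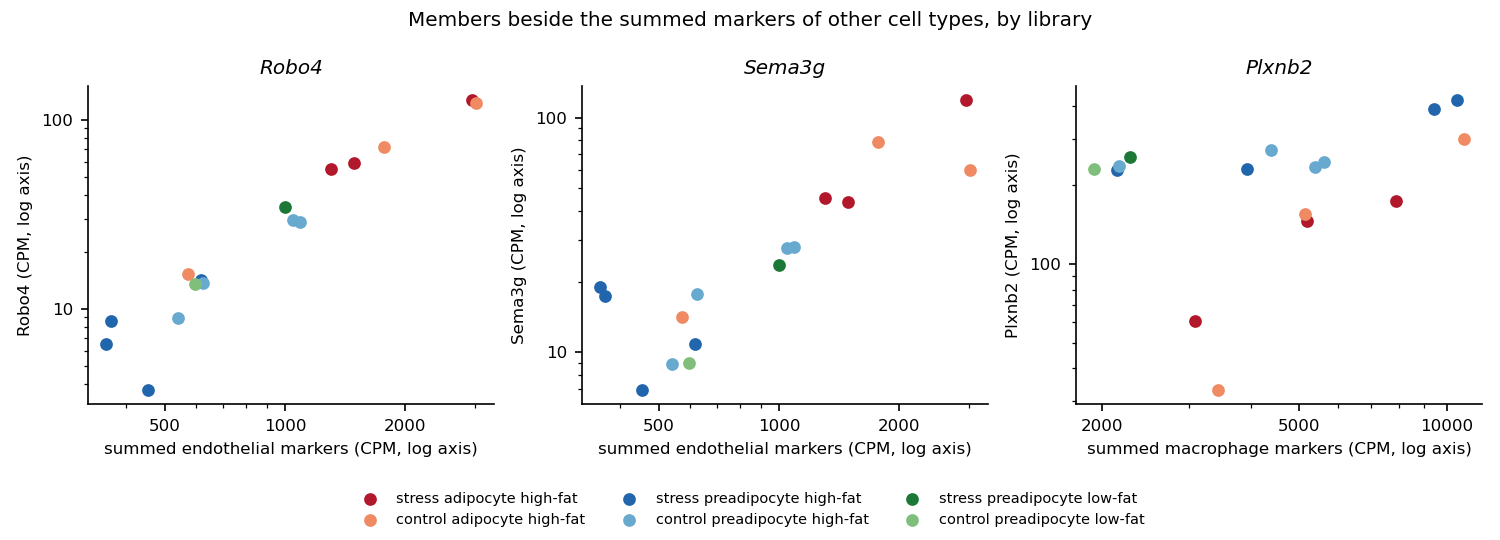
CPM of Robo4 and Sema3g against the summed endothelial markers, and of Plxnb2 against the summed macrophage markers, in each of the 16 libraries (all axes log). Robo4 and the endothelial sum were highest in the same 2 adipocyte libraries, with Robo4 at 127 and 123 CPM.

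Netrins are laminin-related secreted cues. Ntn4, a basement membrane protein, had 3.23, 2.55 and 4.78 CPM in MS adipocytes and 5.02, 4.72 and 6.10 CPM in C adipocytes, against 56.2, 83.0, 32.7 and 21.8 CPM in MS preadipocytes and 50.7, 70.0, 50.3 and 53.0 CPM in C preadipocytes. The fractions did not overlap (log2 fold change -3.62 ± 0.31, adjusted p 2.42e-07). Ntn1, the classical axon attractant, had 8.19, 5.04 and 10.9 CPM in MS adipocytes and 7.30, 15.3 and 12.2 CPM in C adipocytes, against 112, 160.5, 71.3 and 63.4 CPM in MS preadipocytes and 92.6, 121, 87.0 and 96.8 CPM in C preadipocytes. The gap between the fractions was again complete (log2 fold change -3.41 ± 0.29, adjusted p 2.46e-07, 10.6-fold lower). The Unc5 receptors mediate repulsion from netrins. Unc5a had 54.3, 83.2 and 47.4 CPM in MS adipocytes and 48.1, 74.2 and 54.9 CPM in C adipocytes, against 19.8, 20.2, 36.3 and 31.6 CPM in MS preadipocytes and 28.4, 15.8, 28.4 and 27.6 CPM in C preadipocytes. All adipocyte libraries lay above all preadipocyte libraries (log2 fold change 1.25 ± 0.22, adjusted p 0.000174). The end of Unc5a on chromosome 13 (positions 54949411 to 55006018, plus strand) shares 34 bases with the opposite-strand gene Hk3, a hexokinase, whose level was 19.1 to 106 CPM in mature adipocytes and 13.1 to 91.8 CPM in preadipocytes. The strand setting of the counting is unknown here, so reads from those shared bases cannot be told apart. Unc5c stayed low, with 0.404, 0.382 and 0.453 CPM in MS adipocytes and 0.947, 0 and 0 CPM in C adipocytes, against 1.64, 1.27, 1.09 and 0.912 CPM in MS preadipocytes and 1.59, 7.16, 2.36 and 1.81 CPM in C preadipocytes (log2 fold change -2.42 ± 0.79, adjusted p 0.0161). The Unc5c call was lost with C libraries alone (adjusted p 0.0941) and in the same fit with a block (-2.64, adjusted p 0.0513). Unc5b was not called (-0.17 ± 0.31).

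The plexins are the semaphorin receptors. Of the 9 plexins, 1 was higher, 3 were lower and 5 were not called, with a median log2 fold change of -0.79. Plxna2 was higher in mature adipocytes, with 54.0, 91.4 and 98.4 CPM in MS adipocytes and 35.2, 83.9 and 82.9 CPM in C adipocytes, against 44.4, 38.0, 29.1 and 23.8 CPM in MS preadipocytes and 45.5, 39.8, 51.7 and 29.1 CPM in C preadipocytes. C adipocyte library 1 again lay within the preadipocyte range (log2 fold change 1.04 ± 0.24, adjusted p 0.00184). Plxna3 was lower in mature adipocytes without overlap (3.51 to 9.60 CPM in mature adipocytes against 13.9 to 21.8 CPM in preadipocytes, log2 fold change -1.56 ± 0.25, adjusted p 8.54e-05). Plxnb1, the receptor of Sema4d, was lower too (-1.88 ± 0.57, adjusted p 0.0103), but not called with MS libraries alone (-1.44, adjusted p 0.0991) or without C adipocyte libraries 1 and 3 (-1.40, adjusted p 0.0642).

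Plxnb2, a widely expressed plexin that binds class 4 semaphorins, had 174, 60.7 and 146 CPM in MS adipocytes and 33.2, 301 and 156 CPM in C adipocytes, against 231, 229, 391 and 422 CPM in MS preadipocytes and 246, 238, 235 and 274 CPM in C preadipocytes. C adipocyte library 2, the highest adipocyte library for the summed macrophage markers (10806 CPM), was the only adipocyte library within the preadipocyte range. MS preadipocyte libraries 3 and 4, the highest for Plxnb2, also had the most macrophage marker RNA of the preadipocytes (9411 and 10502 CPM). MS library 2 had the least of the high-fat preadipocytes (2146 CPM) and still 229 CPM of Plxnb2. MS adipocyte library 1 had 174 CPM of Plxnb2 at 7881 CPM of macrophage markers. Per 1000 CPM of macrophage markers, Plxnb2 was 9.67 to 30.3 CPM in mature adipocytes and 40.1 to 110 CPM in preadipocytes, without overlap. The part of macrophages was not tested. The log2 fold change was -0.99 ± 0.40 (adjusted p 0.0437). This call was lost when any of 8 libraries was left out: C preadipocyte library 2 or 4 (adjusted p 0.0518 and 0.0630), MS preadipocyte library 3 or 4 (0.0702 and 0.0726), C adipocyte library 3 (0.0618), and MS adipocyte library 1, 2 or 3 (0.0577, 0.101 and 0.0756). It was lost in 12 of 25 alternatives, among them C libraries alone (-0.65, adjusted p 0.423). With MS libraries alone Plxnb2 was called (-1.34, adjusted p 0.0223). Plxna1, Plxna4, Plxnb3, Plxnc1 and Plxnd1 were not called. Plxnd1, the endothelial receptor of Sema3e, had 177, 81.6 and 181 CPM in MS adipocytes and 60.4, 257 and 262 CPM in C adipocytes, against 97.2, 82.0, 150.4 and 166 CPM in MS preadipocytes and 119, 77.8, 121 and 118 CPM in C preadipocytes. The fractions overlapped widely (0.54 ± 0.33, adjusted p 0.164), and without C adipocyte library 1 Plxnd1 was called higher (0.69, adjusted p 0.0469). Without C adipocyte library 2, Plxna1 (-0.76, adjusted p 0.0235) and Plxnc1 (-1.47, adjusted p 0.0140) were called lower, and Plxnc1 also without MS adipocyte library 1 (-1.43, adjusted p 0.0182). Plxna1 and Plxnc1 were each called lower in 7 of 25 alternatives, for Plxna1 also with MS libraries alone (-0.79, adjusted p 0.0184).

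The neuropilins, co-receptors for class 3 semaphorins and for vascular endothelial growth factor, were abundant in both fractions. Nrp1 had 173, 154 and 273 CPM in MS adipocytes and 68.4, 215 and 143 CPM in C adipocytes, against 179, 183, 230.3 and 245 CPM in MS preadipocytes and 178, 175, 173 and 206 CPM in C preadipocytes. Nrp2 had 118, 71.1 and 160.3 CPM in MS adipocytes and 38.5, 218 and 104 CPM in C adipocytes, against 127, 94.8, 156 and 158 CPM in MS preadipocytes and 169, 105, 168 and 102 CPM in C preadipocytes. For both genes the adipocyte libraries spanned a wider range than the preadipocyte libraries and overlapped with it. Their log2 fold changes were -0.21 ± 0.23 for Nrp1 (adjusted p 0.450) and -0.13 ± 0.32 for Nrp2 (adjusted p 0.735).

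Levels of different genes were compared per length, as deposited FPKM on the high-fat diet. In mature adipocytes the highest median levels were those of Plxnd1 (22.1 FPKM, range 8.46 to 36.2 over 6 libraries), Sema7a (18.9 FPKM, range 6.47 to 39.4) and Plxnb2 (18.7 FPKM, range 4.398 to 35.2), followed by Nrp1 (15.8 FPKM), Slit3 (14.2 FPKM) and Unc5a (12.6 FPKM). The ranges of these 6 genes overlapped, so their order is not firm. In preadipocytes Slit3 led with a median of 117.5 FPKM (range 85.3 to 165 over 8 libraries, with the near-identical pair averaged and counted as 1 in these medians), above Sema3c (58.9 FPKM, range 33.3 to 95.5) and Plxnb2 (31.6 FPKM, range 29.99 to 57.0). Neighbours in this order overlapped, but the lowest Slit3 level was above the highest Plxnb2 level. At the other end, Unc5d, Ntn5 and Robo3 stayed at or below 0.123 FPKM in every high-fat library. Plxna1, Nrp1 and Plxnd1 were among the 7 highest members in preadipocytes, so receptors for class 3 semaphorins were measured in both fractions.

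**Figure D4:**
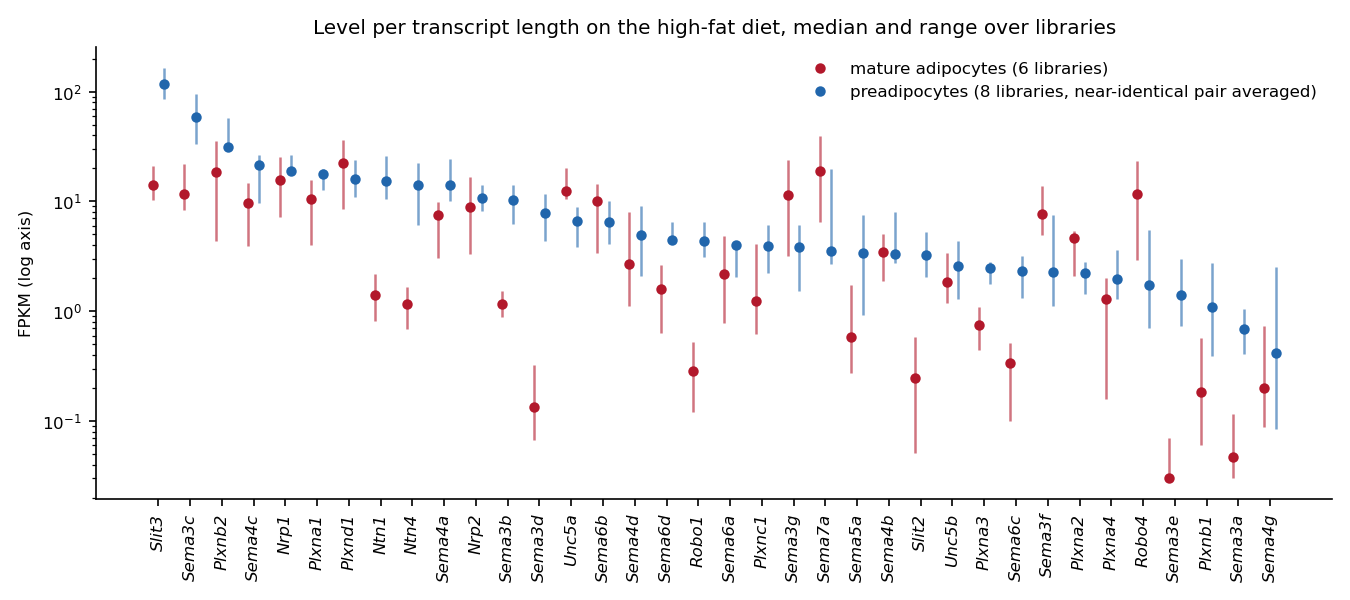
Deposited FPKM (log axis) of the 36 members that reached 1 FPKM in at least 1 high-fat preadipocyte library, as the median (point) and range (line) over 6 mature adipocyte libraries (red) and 8 preadipocyte libraries with the near-identical pair averaged and counted as 1 (blue), in the order of the preadipocyte median; values under 0.03 are drawn at 0.03. Slit3 and Sema3c lead in preadipocytes, and Plxnd1, Sema7a and Plxnb2 in mature adipocytes.

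The fraction comparison was also made within each early life group. With MS libraries alone 25 members were called, 6 of them higher in mature adipocytes, and with C libraries alone 18, of which only Unc5a was higher. Calls among all genes tested were also fewer in C libraries, at 49.7% (24.7% higher) with MS libraries alone and 36.8% (18.5% higher) with C libraries alone. The log2 fold change of Unc5a was 1.22 ± 0.34 in MS libraries and 1.30 ± 0.33 in C libraries. Robo4 had a log2 fold change of 3.29 in MS libraries (adjusted p 0.000881) and 1.98 in C libraries (adjusted p 0.0515). Sema3g had 2.35 in MS libraries (adjusted p 0.00392) and 1.45 in C libraries (adjusted p 0.0919), and Sema3f had 2.17 in MS libraries (adjusted p 0.00285) and 1.30 in C libraries (adjusted p 0.0928). Sema7a had 2.20 in MS libraries (adjusted p 0.0106) and 1.14 in C libraries (adjusted p 0.260), and Plxna2 had 1.32 in MS libraries (adjusted p 0.00492) and 0.76 in C libraries (adjusted p 0.136). These 5 estimates were smaller in C libraries, but the test of the difference itself did not call any of the 5 genes (interaction adjusted p 0.934 to 0.943). Of the lower members, Slit3 had -2.90 ± 0.27 in MS libraries and -2.99 ± 0.36 in C libraries, and Robo1 had -3.93 ± 0.41 in MS libraries and -3.66 ± 0.45 in C libraries.

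Genes of the wider pathway were counted from lists. Of 42 other guidance ligands and receptors (ephrins, Eph receptors, RGM proteins, adhesion receptors and others), 37 were tested, 4 were higher and 21 lower in mature adipocytes, with a median log2 fold change of -1.37. The netrin receptors Dcc (-3.61 ± 0.99, adjusted p 0.00589) and Neo1, which encodes neogenin (-1.70 ± 0.24, adjusted p 2.81e-05), were lower, as was the netrin antagonist Draxin (-4.17, adjusted p 0.00225). The 4 higher genes were Kdr, a receptor of vascular endothelial growth factor that is also on the endothelial marker list (1.90), the integrin gene Itga1 (1.19), the Eph receptor Ephb2 (0.98) and the netrin-G gene Ntng2 (0.76). Of 39 guidance signalling effectors, 38 were tested, 11 were higher and 16 lower, with a median of -0.54. Beside both lists, 26.9% of all genes tested were higher and 32.9% lower in mature adipocytes, with a median of -0.22. The semaphorin effectors Crmp1 (-3.15) and Dpysl3 (-3.13), collapsin response mediator proteins, and the Slit effector Srgap1 (-2.82) were lower, while the small GTPase Rhod (2.14), the actin-binding Ablim3 (1.89) and the kinase Limk2 (1.44) were higher.

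The next comparisons asked whether early life stress changed the members within a fraction on the high-fat diet. In preadipocytes none of 42 members tested was called, as was none of all 17129 genes (0%; 496 genes and 3 members had an unadjusted p under 0.05, and DESeq2 called 4 genes, none of them a member). In mature adipocytes none of 38 members was called, as was none of 14485 genes (0%; 417 genes and 0 members had an unadjusted p under 0.05, and DESeq2 called 9 genes, none of them a member). The values below are therefore descriptions of the members with the smallest p-values.

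In preadipocytes Unc5c had 1.64, 1.27, 1.09 and 0.912 CPM in MS libraries and 1.59, 7.16, 2.36 and 1.81 CPM in C libraries, a difference led by C library 2 (log2 fold change -1.55 ± 0.54, adjusted p 0.973). Slit1 had 2.72, 2.68, 3.30 and 4.21 CPM in MS preadipocytes and 1.08, 0.935, 1.79 and 2.43 CPM in C preadipocytes. Every MS library was above every C library for Slit1, at levels of a few CPM (1.05 ± 0.41, adjusted p 0.973). Sema4g had 2.03, 2.31, 1.13 and 0.391 CPM in MS preadipocytes and 12.2, 2.71, 12.4 and 1.55 CPM in C preadipocytes (-1.96 ± 0.80, adjusted p 0.973). Its high C values were those of the near-identical pair, libraries 1 and 3, which also held more mesothelial marker RNA (1418 and 1399 CPM) than the other preadipocyte libraries (139 to 997 CPM); the part of mesothelial cells was not tested. Slit3 (0.07 ± 0.23), Sema3c (-0.28 ± 0.34) and Sema3d (-0.25 ± 0.30) were not called between MS and C preadipocytes.

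In mature adipocytes Sema4b had 21.5, 28.3 and 26.8 CPM in MS libraries and 10.4, 14.6 and 20.03 CPM in C libraries. The groups did not overlap, and the difference was not called (log2 fold change 0.74 ± 0.36, adjusted p 0.9996). Slit1 had 0.707, 1.02 and 0.604 CPM in MS adipocytes and 0.724, 2.22 and 4.64 CPM in C adipocytes (-1.72 ± 0.88), and Sema3c had 87.0, 106 and 171 CPM in MS adipocytes and 77.2, 96.3 and 59.6 CPM in C adipocytes (0.62 ± 0.36). Both overlapped between MS and C adipocytes.

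**Figure D5:**
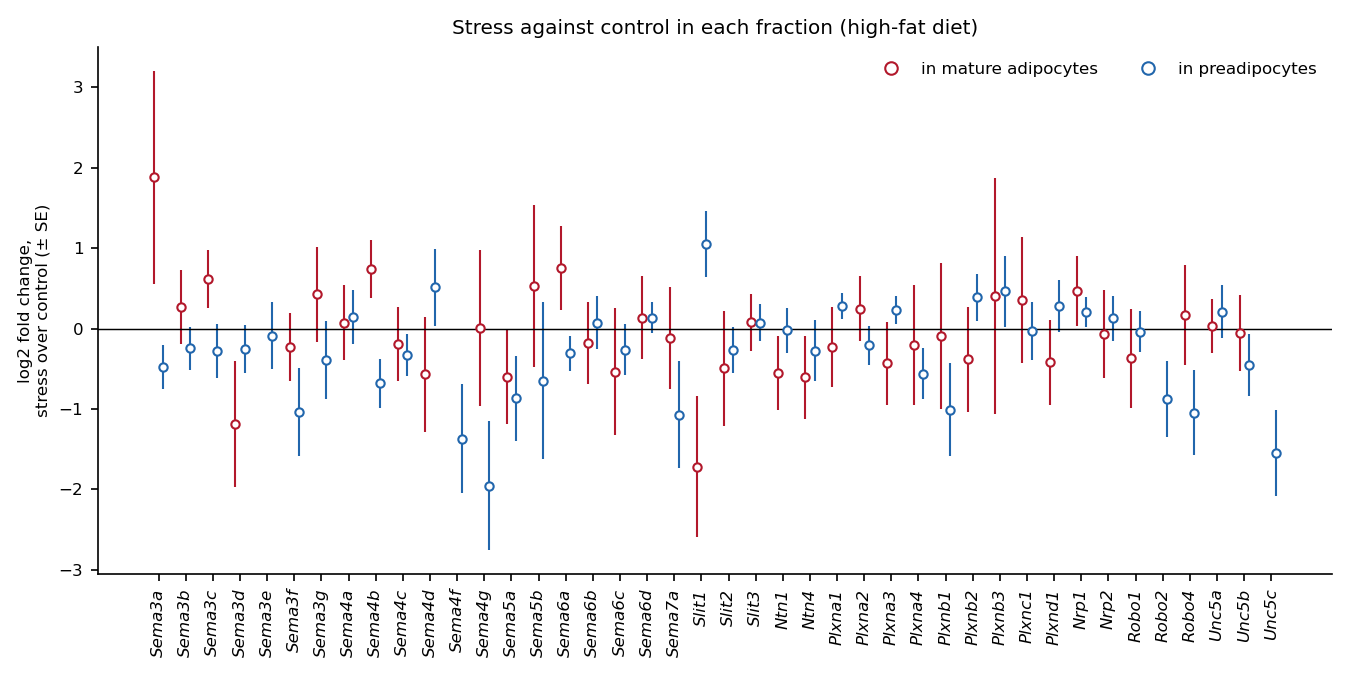
Log2 fold change (MS over C, high-fat diet) of the 38 members tested in mature adipocytes (red) and the 42 tested in preadipocytes (blue), with bars for the standard error. No member was called in either fraction; Sema4b and Slit1 lie on opposite sides of 0 in the fractions.

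The stress effect in mature adipocytes minus that in preadipocytes was tested as an interaction. None of 42 members was called, as was none of 17948 genes (0%; 873 genes and 2 members had an unadjusted p under 0.05, and DESeq2 called 3 genes, none of them a member). The 2 members were Sema4b (1.45 ± 0.46, adjusted p 0.934) and Slit1 (-2.72 ± 0.90, adjusted p 0.934). In preadipocytes Sema4b had 22.6, 18.6, 17.6 and 14.7 CPM in MS libraries and 45.2, 24.5, 45.5 and 19.0 CPM in C libraries, so it was lower on average there under stress, with the highest values in the near-identical pair. Sema3a followed (2.36 ± 1.12, adjusted p 0.934), at no more than 1.77 CPM in any adipocyte library.

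High-fat was set against low-fat diet in preadipocytes, where the low-fat side holds 1 MS and 1 C library. None of 43 members was called, as was none of 19998 genes (0%; 2456 genes and 4 members had an unadjusted p under 0.05). Plxna3 had 19.1, 19.3, 21.8 and 19.4 CPM in MS and 13.9, 17.8, 13.9 and 20.3 CPM in C libraries on the high-fat diet, against 29.3 CPM in the MS and 29.1 CPM in the C library on the low-fat diet. All high-fat libraries were lower (log2 fold change -0.65 ± 0.16, adjusted p 0.332). Sema6c was likewise 7.55 to 18.8 CPM in high-fat libraries, against 29.3 CPM in the MS and 23.8 CPM in the C low-fat library (-1.03 ± 0.31, adjusted p 0.332). Slit1 went the other way, with 0.935 to 4.21 CPM in high-fat libraries, against 0.595 CPM in the MS and 0.704 CPM in the C low-fat library (1.77 ± 0.53, adjusted p 0.332). The fourth member was Sema4d, an immune-cell semaphorin, at 15.8 to 67.1 CPM in high-fat preadipocytes and 11.0 and 12.3 CPM in the low-fat libraries (1.69 ± 0.54, adjusted p 0.337). In high-fat preadipocytes the summed macrophage markers were 2146 to 10502 CPM. They were 2277 CPM in the MS and 1927 CPM in the C low-fat library. The MS low-fat library thus lay within the high-fat range, but near its lower end. Of the 16 macrophage markers, 15 had a positive and 1 a negative log2 fold change, high-fat over low-fat. The median of the list was 1.45, and none of these markers was called. The part of macrophages in the Sema4d difference was not tested. DESeq2 called 408 of all genes and 3 members: Slit1 (1.80, adjusted p 0.0269), Sema4d (1.70, adjusted p 0.0316) and Plxna3 (-0.64, adjusted p 0.0344).

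Between the 2 low-fat libraries there was no test, with 1 library each. Of 37 members with at least 5 CPM in either, 6 were at least 2-fold higher in the MS library and none was 2-fold lower. Of all 11285 genes at that level, 2.14% were at least 2-fold higher and 1.13% at least 2-fold lower in the MS library. Robo4 had 34.4 CPM in the MS and 13.5 CPM in the C library, and Sema3g had 23.5 CPM in the MS and 8.99 CPM in the C library. Sema3f had 16.1 CPM in the MS and 6.63 CPM in the C library, and Sema7a had 24.5 CPM in the MS and 8.32 CPM in the C library. Plxnb1 (15.7 CPM in MS, 5.63 CPM in C) and Sema4g (5.41 CPM in MS, 1.95 CPM in C) were the others. The summed endothelial markers were 1002 CPM in the MS and 595 CPM in the C library. Large shares came from Tek (233 CPM in MS, 247 CPM in C) and Eng (166 CPM in MS, 133 CPM in C). Other genes of that list differed more, such as Cdh5 (124 CPM in MS, 39.4 CPM in C) and Tie1 (39.2 CPM in MS, 11.9 CPM in C). The part of endothelial cells was not tested. Slit3 had 772 CPM in the MS and 969.9 CPM in the C library, and Sema3c 609 CPM in the MS and 636 CPM in the C library.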

How the data were processed

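The deposited gene-level raw read counts and FPKM of 16 bulk libraries were used; the authors' FPKM were whole-library rescalings of counts per length. Per the submitters' processing notes, the tools were STAR 2.6.1d, edgeR 3.24.3 and DESeq2 1.20.0 and the builds GRCm38 and mm10. No counting program or strand setting is given in the sources used here. Members and lists were chosen with earlier results of these data known.

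Counts were tested with edgeR 4.0.16 (R 4.3.3): TMM, filterByExpr, robust quasi-likelihood F test, Benjamini-Hochberg adjustment over all genes tested, threshold 0.05. Each ± after a log2 fold change is its standard error. CPM used TMM over 16 libraries. C preadipocyte libraries 1 and 3 differed more than sampling noise (chi-square per gene 4.02) but far less than any other pair within a group (30.0 or more), and were summed as 1 sample. The fits were tested on simulated data. Alternatives were DESeq2 1.42.0, limma 3.58.1 on log2(FPKM + 0.1), other filters and scaling, and left-out libraries. Values in every library are given for the 5 highest and 5 lowest called members between fractions, the 3 with the smallest p in each other comparison, the 3 highest by FPKM in each fraction, the neuropilins, and some others chosen after their values were seen. Of the 45 members 29 overlap another annotated gene, but in only 3 (Ntn5, Sema5b and Unc5a) did the overlapping gene have over 10% of the member's counts.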

Additional observations from a re-analysis of the deposited data

Results flagged for a closer look

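Within groups of 4 libraries, of which the MS high-fat preadipocytes are the only group tested, 3 of 45 members had a library far from the others relative to the range of the group. Plxna1 was 135 CPM in MS preadipocyte library 1, against 167 to 171 CPM in the other libraries. Plxna3 was 21.8 CPM in library 3, against 19.1 to 19.4 CPM. Sema7a was 28.5 CPM in library 1, against 8.71 to 11.2 CPM. Chance flags about 1 in 20 such groups.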

How the results depend on the processing

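Of the 27 members called between fractions, 16 (1 higher, Unc5a, and 15 lower) stayed called in all 25 alternatives run, and the number called ranged from 18 (C libraries alone) to 29; leaving out single libraries gave 25 to 29. The fit with treatment and replicate number as a block, in which the near-identical pair was also kept as 2 libraries, called 26 members between fractions and 0 in either stress comparison; same-numbered libraries correlated at -0.248 to 0.333, so the numbers were not taken as pairs. In that fit Sema7a (1.27, adjusted p 0.101) and Unc5c (-2.64, adjusted p 0.0513) were not called and Plxnc1 was (-1.36, adjusted p 0.0296). With the pair kept as 2 libraries and no block, Sema7a and Unc5c were called and Plxnc1 was not. RLE size factors shifted the median log2 fold change of all genes to -0.32, from -0.22 with TMM, and Plxna1 (-0.69, adjusted p 0.0355) and Plxnc1 (-1.13, adjusted p 0.0377) were then called lower. For diet, DESeq2 called 3 members against 0 with edgeR, and 408 of all genes against 0 with edgeR.

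Members not called between fractions changed sign in some alternatives, and the cause was not tested. Without C adipocyte libraries 1 and 3, log2 fold changes were 0.0233 for Nrp1, 0.129 for Nrp2, 0.155 for Plxnb3 and 0.0948 for Sema4b. Without the near-identical pair they were 0.0597 for Sema4b and 0.0188 for Unc5b. With MS libraries alone they were 0.516 for Sema4b, 0.190 for Sema4g and 0.0599 for Unc5b, and with C libraries alone 0.0728 for Sema4d and 0.629 for Slit1. Leaving out single libraries gave -0.44 to 0.0347 for Nrp2 and -0.0908 to 0.937 for Sema5b.

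The low-fat side has 1 library per early life group, both with replicate number 1, and no fit with a block was made for diet. Members under about 1 CPM in mature adipocytes rest on few counts.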
